A study of Mus musculus with 11 samples.

Results

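The antitrypsin genes Serpina1a, Serpina1b, Serpina1c, Serpina1d and Serpina1e were followed in epithelial cells of the mouse small intestine. They were taken by gene symbol from a table of 11366 genes, and 5 of the 5 were present. Libraries came from wild-type mice in 3 groups. Control mice ate standard chow and had no listed treatment (n = 3 libraries, numbered 2, 4 and 5). NFF mice ate chow low in fermentable fiber and also had no listed treatment (n = 4), and SFB mice ate standard chow and were colonized with SFB, read here as segmented filamentous bacteria, commensals that attach to the ileal epithelium (n = 4). RNA was polyA RNA of cells sorted as live, EpCAM positive and negative for CD45, CD31 and CD44, a gate that selects against leukocytes, endothelium and CD44-bearing crypt cells. Levels are in RPKM, read counts divided by gene length and by the size of the library, which allows genes of a library to be compared per length. The labels give neither the strain, age or sex of the mice nor whether each library is a separate animal, so spreads are between these libraries and may be technical.

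Alpha-1-antitrypsin is a secreted serpin, a protease inhibitor that presents a loop as bait and traps the protease that cuts it. Its best known target is the elastase of neutrophils. Hepatocytes make most of the plasma protein, and intestinal epithelial cells and macrophages also make it. Mice carry several copies of the gene where humans carry a single SERPINA1, the number of copies differs between strains, and the copies differ most in the bait loop, which sets the protease that is inhibited.

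The 5 genes lie on the minus strand of chromosome 12 in GRCm38, the assembly that mm10 names. In the GENCODE M21 annotation Serpina1a spans chr12:103853589-103863562, Serpina1b chr12:103728156-103830373, Serpina1c chr12:103894926-103904887, Serpina1d chr12:103763594-103773592 and Serpina1e chr12:103946931-103958975. The GENCODE span of Serpina1b encloses the whole of Serpina1d on the same strand, whereas RefSeq ends Serpina1b at 103738189. The gene models that the authors counted on are not stated in what was used here.

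The coding sequences were nearly alike. Each gene had a GENCODE transcript with 5 exons and 1242 coding bases, which allowed comparison base by base. Identity between copies ran from 96.3% to 98.5%, and the closest pair was Serpina1a and Serpina1c with 19 differing bases. Of all coding positions 86 differed in at least 1 copy. They were unevenly placed, as the plot of differing positions along the coding sequence shows, and the densest 60-base window, from base 1102 to base 1161, held 18 of them. This window encodes the bait loop, and it is printed because it is the densest run of differences between the copies and the loop is known to set the target. Most of the 86 positions lie outside it. It lies within a single exon in each gene, at chr12:103853756-103853815 for Serpina1a, chr12:103728323-103728382 for Serpina1b, chr12:103895093-103895152 for Serpina1c, chr12:103763761-103763820 for Serpina1d and chr12:103947099-103947158 for Serpina1e. The strand is the coding (minus) strand, 5′ to 3′, and capitals mark positions that are not the same in all 5 copies.
Serpina1a: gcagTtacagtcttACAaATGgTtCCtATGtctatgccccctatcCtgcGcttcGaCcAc
Serpina1b: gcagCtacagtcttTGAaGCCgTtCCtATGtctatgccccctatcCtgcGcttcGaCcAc
Serpina1c: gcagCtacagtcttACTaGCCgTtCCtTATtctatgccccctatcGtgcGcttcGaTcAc
Serpina1d: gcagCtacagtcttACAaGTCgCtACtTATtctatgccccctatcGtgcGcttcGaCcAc
Serpina1e: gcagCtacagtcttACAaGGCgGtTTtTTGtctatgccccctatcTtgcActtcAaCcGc

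**Figure D1:**
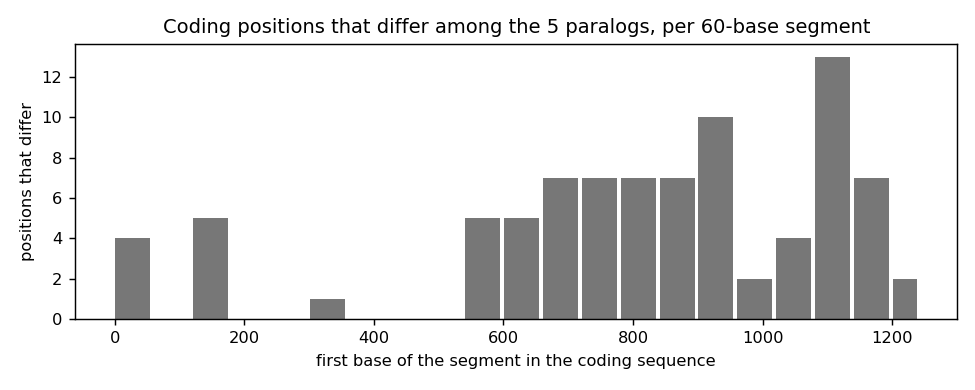
Number of coding positions at which at least 1 of the 5 Serpina1 copies differs (vertical axis) in successive 60-base segments of the 1242 coding bases (horizontal axis, first base of the segment). The segment from base 1081 to 1140 held 13 such positions, and several segments in the first part of the sequence held 0.

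The likeness of the copies limits how far reads can be assigned. Of all 50-base stretches of the coding sequence, 16.1% of those of Serpina1a occurred in no GENCODE transcript of another gene, against 24.5% for Serpina1c, 45.6% for Serpina1d, 52.8% for Serpina1b and 61.0% for Serpina1e. For 100-base stretches the range was 35.6% for Serpina1a to 80.9% for Serpina1e. Neither the read length nor the treatment of reads that fit several places is known here, so the levels of single copies, above all Serpina1a and Serpina1c, are uncertain, and the summed level of the 5 is given beside them.

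Upstream sequence was also shared. It is shown because the group means of the 5 genes differed in the same direction, as described below. The part of this sequence in their levels was not tested. In the RefSeq table of promoter windows (GRCm38.p6, 250 bases before to 50 after the annotated start) all 5 genes matched. The following stretches of 96 bases lie upstream of the annotated start, at chr12:103863625-103863720 for Serpina1a, chr12:103738200-103738295 for Serpina1b, chr12:103904962-103905057 for Serpina1c, chr12:103773634-103773729 for Serpina1d and chr12:103956960-103957055 for Serpina1e. All are on the minus strand, 5′ to 3′, and capitals mark the 10 positions that are not the same in all 5 copies.
Serpina1a: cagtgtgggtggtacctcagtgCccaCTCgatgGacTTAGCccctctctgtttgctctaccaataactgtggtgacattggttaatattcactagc
Serpina1b: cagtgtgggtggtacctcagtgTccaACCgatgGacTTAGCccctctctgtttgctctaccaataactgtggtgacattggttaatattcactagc
Serpina1c: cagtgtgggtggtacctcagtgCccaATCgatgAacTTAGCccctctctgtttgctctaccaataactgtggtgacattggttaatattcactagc
Serpina1d: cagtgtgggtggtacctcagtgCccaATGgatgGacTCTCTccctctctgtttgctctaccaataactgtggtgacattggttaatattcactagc
Serpina1e: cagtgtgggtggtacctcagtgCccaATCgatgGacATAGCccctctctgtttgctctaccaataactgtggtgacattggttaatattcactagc

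Serpina1d differed from the other copies at 6 or 7 of these 96 bases, whereas the other copies differed among themselves at 2 or 3. TTTATG, a core of Cdx factors, which specify intestine, was searched on both strands and stood in 5 of 5 windows of the genes, against 11.9% of 32851 RefSeq promoter windows. It lay upstream of the printed stretches, at -182, -189, -188, -177 and -239 from the annotated start for Serpina1a to Serpina1e. The motif was chosen after the sequences were seen, so its presence in all 5 follows from that choice and no enrichment is read from it. These are matches of letters in copies that descend from a common gene, and binding was not measured.

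Serpina1 levels were highest in NFF libraries and lowest in SFB libraries. The summed level of the 5 genes was 78.4, 24.2 and 25.2 RPKM in Control 2, 4 and 5, 44.6, 96.7, 49.9 and 178.0 RPKM in NFF 1 to 4, and 9.09, 12.5, 8.72 and 3.82 RPKM in SFB 1 to 4. Every SFB library was below every Control and every NFF library, while Control 2 lay among the NFF libraries. The group means and SDs were 42.6 ± 31.0 RPKM for Control (n = 3), 92.4 ± 61.9 for NFF (n = 4) and 8.52 ± 3.56 for SFB (n = 4), a 10.8-fold higher mean in NFF than in SFB. These genes were chosen with results of these data known, so their levels and differences are a description and the calls counted for them below are given only beside the share of all genes. In sorted bulk cells, fewer cells of a type and less RNA per cell cannot be told apart.

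Serpina1b was the most abundant copy in most libraries. It stood at 6.11, 11 and 13.7 RPKM in Control 2, 4 and 5, at 13.1, 46.9, 17.1 and 72 RPKM in NFF 1 to 4, and at 5.25, 3.89, 4.59 and 2.66 RPKM in SFB 1 to 4. SFB libraries were below all others, and NFF 1 lay within the Control range. Unlike the other copies, Serpina1b was lowest among the Control libraries in Control 2.

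Serpina1e was the next most abundant copy by its means in NFF and SFB and the highest by its mean in Control. It stood at 30.1, 6.01 and 6.37 RPKM in Control 2, 4 and 5, at 16.0, 23.2, 14.9 and 57.6 RPKM in NFF 1 to 4, and at 1.45, 6.15, 2.05 and 0.404 RPKM in SFB 1 to 4. SFB 2 reached the level of Control 4, so SFB and Control overlapped, while NFF and SFB did not.

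Serpina1a was at a lower level and varied little within SFB. It stood at 12.3, 3.08 and 3.27 RPKM in Control 2, 4 and 5, at 5.61, 11.1, 7.5 and 19.8 RPKM in NFF 1 to 4, and at 1.1, 1.02, 0.929 and 0.595 RPKM in SFB 1 to 4. Without Control 2 all NFF libraries lay above both Control libraries, and SFB lay below both.

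Serpina1c was lower in SFB than in any Control or NFF library. It stood at 25.9, 3.1 and 1.61 RPKM in Control 2, 4 and 5, at 7.09, 12.0, 7.66 and 21.3 RPKM in NFF 1 to 4, and at 0.94, 0.555, 0.631 and 0.041 RPKM in SFB 1 to 4. The highest value of the gene was in a Control library, Control 2, and the lowest in SFB 4.

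Serpina1d was the lowest copy in every Control and NFF library. It stood at 4.01, 0.961 and 0.286 RPKM in Control 2, 4 and 5, at 2.81, 3.48, 2.79 and 7.58 RPKM in NFF 1 to 4, and at 0.344, 0.844, 0.514 and 0.121 RPKM in SFB 1 to 4. All SFB values were under 1 RPKM, where the log2(RPKM + 1) scale understates change, and they overlapped with Control.

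**Figure D2:**
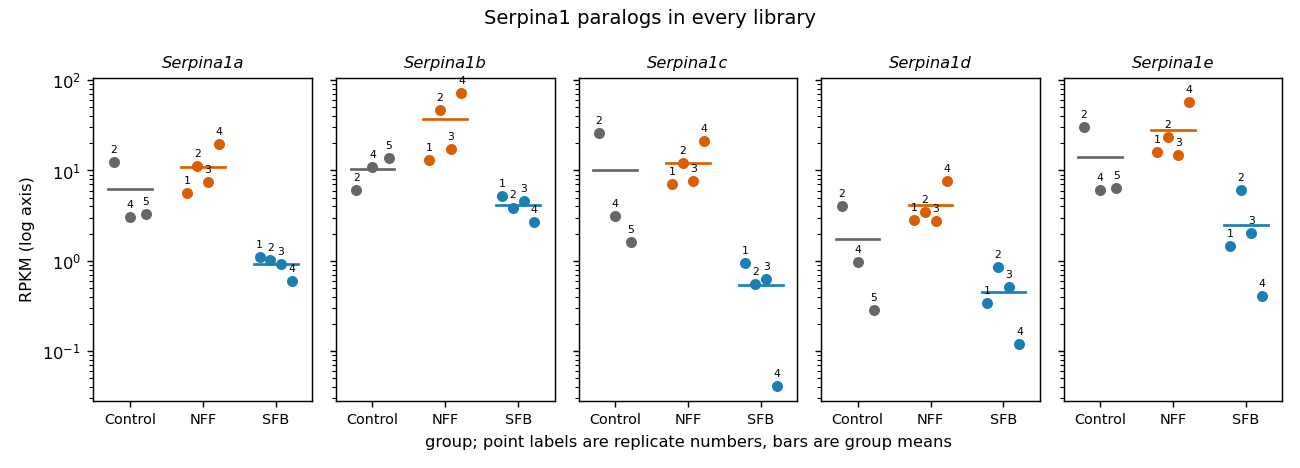
RPKM of each Serpina1 copy (vertical log axis) in every library of the Control, NFF and SFB groups. Points are libraries with their replicate numbers and bars are group means. The 4 SFB libraries sit below the 4 NFF libraries for every copy, and Control 2 sits above the other Control libraries for every copy but Serpina1b.

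By group mean the order in NFF was Serpina1b (37.3 ± 27.7 RPKM), Serpina1e (27.9 ± 20.1), Serpina1c (12.0 ± 6.59), Serpina1a (11 ± 6.29) and Serpina1d (4.16 ± 2.3; SD, n = 4 each). Neighbours in that order differed by less than the larger of their SDs, except Serpina1a and Serpina1d. The copies were measured in the same libraries, so these SDs hold variation that the copies share and do not judge the order. Within every NFF library the order was the same, except that Serpina1e (16.0 RPKM) was above Serpina1b (13.1 RPKM) in NFF 1. In SFB the order was Serpina1b (4.1 ± 1.11 RPKM), Serpina1e (2.51 ± 2.52), Serpina1a (0.912 ± 0.223), Serpina1c (0.542 ± 0.373) and Serpina1d (0.456 ± 0.305; SD, n = 4 each); all neighbours there differed by less than the larger SD. In Control the order was Serpina1e (14.2 ± 13.8 RPKM), Serpina1b (10.3 ± 3.86), Serpina1c (10.2 ± 13.6), Serpina1a (6.21 ± 5.27) and Serpina1d (1.75 ± 1.98; SD, n = 3 each), and again no neighbours differed by more than the larger SD. That order rests on Control 2, without which the means were 12.4 RPKM for Serpina1b, 6.19 for Serpina1e, 3.17 for Serpina1a, 2.35 for Serpina1c and 0.623 for Serpina1d, and 24.7 for the sum of the 5 (n = 2). Within every SFB library Serpina1a was above Serpina1c, and within every Control library Serpina1a was above Serpina1d. The other neighbours in the SFB and Control orders changed places between libraries.

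Setting NFF against Control asks what a diet low in fermentable fiber does to the epithelium. Each of the 5 copies had a higher mean in NFF, but every copy overlapped between the groups. Differences in log2(RPKM + 1) were 0.83 ± 0.43 for Serpina1a, 1.51 ± 0.49 for Serpina1b, 0.85 ± 0.64 for Serpina1c, 1.06 ± 0.41 for Serpina1d and 1.09 ± 0.64 for Serpina1e (± SE). Of the 5 copies 0 were called by limma at a Benjamini-Hochberg adjusted p under 0.05, 2 had an unadjusted p under 0.05, and 0 had all NFF libraries above all Control libraries. Over the 10482 genes tested, 0% were called, 4.82% had such an unadjusted p and 5.35% had all NFF libraries above Control.

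Control 2 weighed on this comparison. Without it the log2 differences were 1.39 for Serpina1a, 1.21 for Serpina1b, 1.87 for Serpina1c, 1.61 for Serpina1d and 1.79 for Serpina1e, and NFF and Control then overlapped only for Serpina1b. Control 2 also stood apart in genes that mark position along the gut. The mean of 10 genes of the proximal small intestine was 5.56 on the log2 scale in Control 2, while Control 4 and 5 had 3.94 and 4.01 and NFF libraries 3.84 to 4.05. The mean of 12 distal genes was 4.77, while Control 4 and 5 had 6.22 and 6.67 and NFF libraries 7.06 to 7.18. The part of these levels in the Serpina1 values was not tested.

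The comparison of SFB with Control concerns colonization in mice on the same chow. Each copy had a lower mean in SFB, and Serpina1a, Serpina1b and Serpina1c had every SFB library below every Control library. Log2 differences were -1.69 ± 0.43 for Serpina1a, -1.11 ± 0.49 for Serpina1b, -2.13 ± 0.64 for Serpina1c, -0.70 ± 0.41 for Serpina1d and -1.99 ± 0.64 for Serpina1e (± SE). Those 3 of 5 copies stand beside 6.05% of all tested genes with such a separation, and limma called 0 of 5, against 0.0763% of genes called lower (0.124% higher). An unadjusted p under 0.05 was reached by 4 of 5 copies and by 12.1% of all genes. Without Control 2 the differences were -1.13, -1.41, -1.12, -0.15 and -1.29 in the same order, so that of Serpina1d nearly vanished. NFF and SFB are both set against the same 3 Control libraries here.

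In the comparison of SFB with NFF, in which diet and colonization both differ, every SFB library was below every NFF library for each copy. Log2 differences were -2.52 ± 0.40 for Serpina1a, -2.62 ± 0.46 for Serpina1b, -2.99 ± 0.60 for Serpina1c, -1.76 ± 0.38 for Serpina1d and -3.08 ± 0.59 for Serpina1e (± SE). On the RPKM scale the NFF mean was 12.1, 9.09, 22.2, 9.14 and 11.1 times the SFB mean. The SFB means of Serpina1a, Serpina1c and Serpina1d were 0.912, 0.542 and 0.456 RPKM, so their ratios are uncertain and the copies are not ranked by them. All tested genes had 9.91% with all SFB libraries below NFF. Limma called 5 of 5 copies lower, against 4.2% of genes called lower (3.14% higher, 7.34% in all, and 25.7% at an unadjusted p under 0.05), a count that follows from how the genes were chosen and from which nothing is read. It was 3 of 5 without NFF 2 (Serpina1c at -2.95 and Serpina1d at -1.80 no longer called) and 3 of 5 without NFF 4 (Serpina1c at -2.69 and Serpina1d at -1.49 no longer called).

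**Figure D3:**
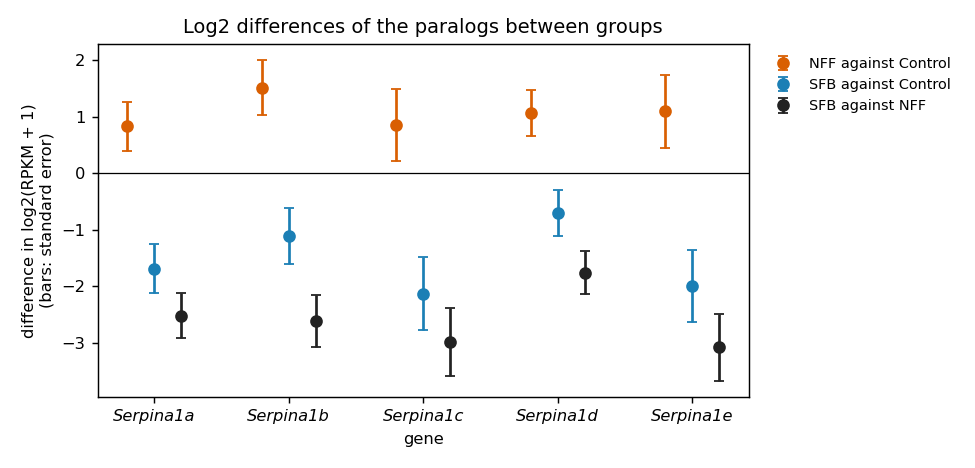
Difference in log2(RPKM + 1) between groups (vertical axis) for each Serpina1 copy (horizontal axis), with bars of 1 standard error from the limma fit to 11 libraries. NFF against Control lies above 0 for every copy, from 0.83 to 1.51, and SFB against NFF lies lowest, from -1.76 to -3.08.

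The makeup of the summed Serpina1 level was not the same in all libraries. Serpina1b held 7.79% of the sum in Control 2, but up to 54.3% in the other Control libraries, 29.3% to 48.5% in NFF and 31.2% to 69.6% in SFB. Serpina1c held 33.0% in Control 2 and 6.39% in Control 5. Serpina1a, the copy with the fewest stretches of its own, kept the narrowest range for its size, 12.7% to 15.7% in Control, 11.1% to 15.0% in NFF and 8.2% to 15.6% in SFB.

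The ratio of Serpina1b to Serpina1c also set Control 2 apart. It was 0.236 in Control 2, against 3.57 and 8.5 in Control 4 and 5. It was 1.85, 3.91, 2.23 and 3.38 in NFF 1 to 4 and 5.58, 7.02, 7.28 and 64.8 in SFB 1 to 4, where the last rests on 0.041 RPKM of Serpina1c in SFB 4. Every SFB library but SFB 4 lay below Control 5, and every NFF library lay below all SFB libraries. Control 2 was the only library in which Serpina1c exceeded Serpina1b. SFB 2 differed from the other SFB libraries in its Serpina1e, which held 49.3% of the sum there.

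**Figure D4:**
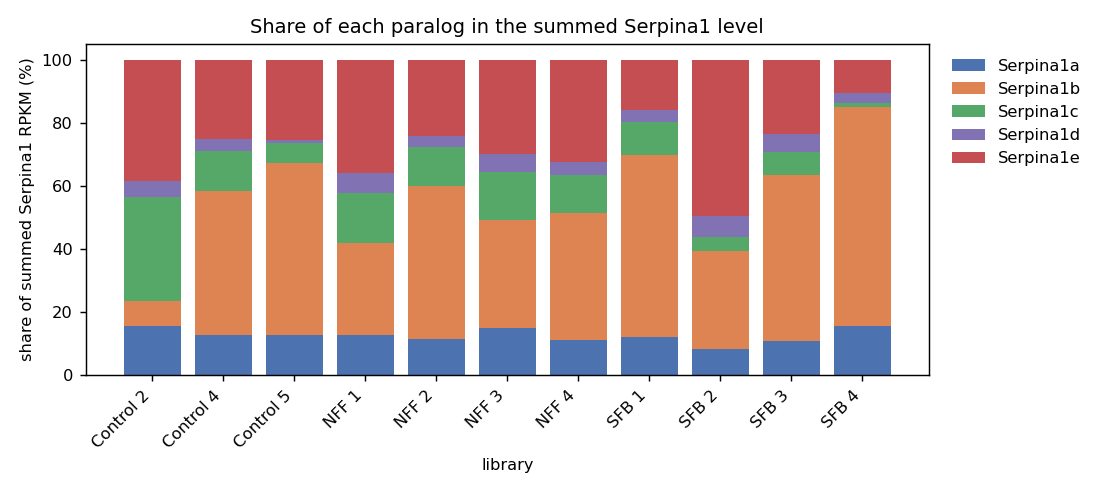
Share of each Serpina1 copy in the summed RPKM of the 5 copies (vertical axis, percent) in each of 11 libraries (horizontal axis). Serpina1b takes 7.79% in Control 2 and its largest share, 69.6%, in SFB 4.

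Across all 11 libraries the profile of Serpina1b was the least like the others. Likeness was measured as the root mean square difference between log2(RPKM + 1) profiles, each centred on its mean over the 11 libraries, where 0 would be the same profile. Serpina1a and Serpina1c were the closest pair at 0.45 and also the closest in coding sequence, so that shared reads and shared expression cannot be told apart. Serpina1b and Serpina1c were the farthest pair at 1.11, followed by Serpina1b and Serpina1e at 0.99. Control 2 weighed heavily on these distances. The ratio of Serpina1b to Serpina1c was 0.236 there and at least 1.85 in every other library. Likeness was not measured without Control 2, so the ranking is not read as a trait of Serpina1b.

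By the same measure, over all 11 libraries, the gene closest to the mean of the 5 copies was Pcsk1n (0.39), which encodes proSAAS, a granin-like protein of neuroendocrine cells. It was followed by Hspb1, a small heat shock protein (0.41), Prnp, the prion protein (0.44), Rdh16f2, of the retinol dehydrogenase family (0.45), Nt5e, the ecto-nucleotidase CD73 (0.46), Fcna, ficolin A (0.47), Chga, chromogranin A of enteroendocrine cells (0.47), and Tm4sf4, a tetraspan membrane protein (0.48). The median over all other tested genes was 1.29, and a flat profile would be at 1.25. These genes were chosen for their profile, so their differences between groups follow from that choice and carry no test.

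Pcsk1n stood at 8.63, 2.33 and 2.21 RPKM in Control 2, 4 and 5, at 5.67, 5.93, 4.0 and 17.1 RPKM in NFF 1 to 4, and at 0.912, 1.61, 2.29 and 0.36 RPKM in SFB 1 to 4. Chga stood at 321.0, 60.1 and 59.9 RPKM in Control, at 168.0, 186.0, 119.0 and 288.0 RPKM in NFF and at 62.4, 77.9, 36.1 and 32.1 RPKM in SFB. Both had Control 2 far above the other Control libraries and NFF 4 highest in NFF, as every Serpina1 copy but Serpina1b had. Hspb1 (7.77 RPKM in Control 2 and 10.7 in NFF 4), Prnp (27.8 and 25.6) and Nt5e (10.3 and 10.7) had the same pattern and are not in the enteroendocrine list. Hspb1 is listed at 0 in SFB 4.

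**Figure D5:**
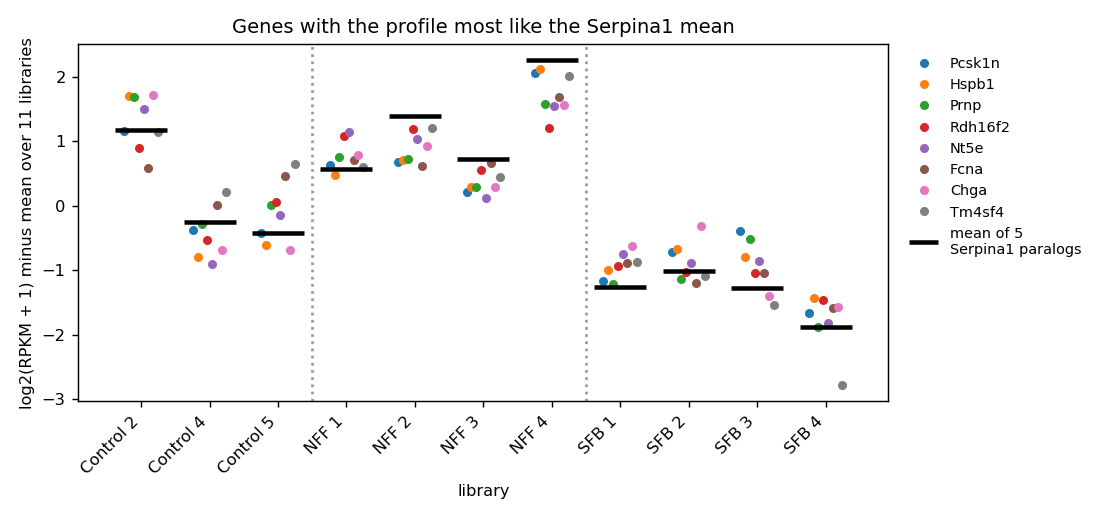
Log2(RPKM + 1) minus its mean over 11 libraries (vertical axis) in each library (horizontal axis, dotted lines separate Control, NFF and SFB), for the mean of the 5 Serpina1 copies (black bars) and the 8 genes with the closest profile (points). The Serpina1 mean was 1.18 in Control 2, 2.26 in NFF 4 and -1.89 in SFB 4, and the points follow it.

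Of the markers of other epithelial cells, the tuft cell list was the one mostly called between SFB and NFF. The mean of 11 enteroendocrine genes was 5.94, 3.95 and 3.74 on the log2 scale in Control 2, 4 and 5, 3.62 to 5.26 in NFF and 2.62 to 3.75 in SFB. Of 10 tested 2 were called lower in SFB against NFF, Chga with a log2 difference of -1.87 and Chgb of -2.09. In all 9 of 10 were below 0 (median -1.18), while Gcg was at 0.79. Between NFF and Control 6 were above 0 and 4 below, Gcg (-2.52) and Cck (-1.85) among the latter. The calls of Chga and Chgb were lost without any of NFF 1 to 4, SFB 1, SFB 3 or SFB 4 (Chga at -1.65 and Chgb at -1.91 without NFF 4). That of Chga was also lost with the replicate number as a block. Chga, like Nt5e in the distal list, is also among the genes chosen above for their profile. Of 11 tuft cell markers 9 were called lower (Dclk1, Trpm5, Gnat3, Pou2f3, Avil, Alox5, Ptgs1 and Il17rb among them) and all 11 were below 0 (median -2.02). List means were 2.77 to 3.57 in Control, 3.32 to 3.99 in NFF and 1.21 to 2.54 in SFB. Il17rb (-1.05) lost its call without any of 7 libraries, with the smallest difference, -0.82, without SFB 4. It also lost its call with a pseudocount of 0.1 (-1.50) and with the replicate number as a block. Of 12 Paneth markers 1 was called lower, Pnliprp2 (-2.54), though all 12 were below 0 (median -1.9). Paneth list means were 9.05 to 10.02 in NFF and 9.31, 3.95, 9.36 and 8.5 in SFB 1 to 4. Of 11 crypt and dividing cell genes 3 were called higher, Olfm4 (3.00), Ccnb2 (1.66) and Birc5 (1.58), and all 11 were above 0 (median 1.45). Pnliprp2 lost its call without NFF 1 to 4, SFB 3 or SFB 4 (-2.33 to -2.74) and with the replicate number as a block. Ccnb2 lost its call without NFF 1, NFF 2, NFF 4 or SFB 3 (1.52 to 1.73) and Birc5 without NFF 1, NFF 2 or NFF 4 (1.51 to 1.59). Of 11 goblet cell markers 0 were called (6 at an unadjusted p under 0.05), with Fcgbp and Ern2 the closest to a call, and all 11 were below 0 (median -0.93). Calls are by limma at a Benjamini-Hochberg adjusted p under 0.05 over all genes, and in the lists below a gene counted as risen or fallen is one called. Between SFB and NFF 4.2% of all tested genes were called lower and 3.14% higher, and 47.3% were below 0. The part of these cells in the Serpina1 levels was not tested.

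Of the distal genes 3 of 12 were called lower in SFB against NFF, Cubn (-1.93), Guca2a (-1.20) and Nt5e (-2.04), and 11 of 12 were below 0 (median -0.7). Of 10 proximal genes 0 were called (2 at an unadjusted p under 0.05) and 5 were below 0, and Dcxr (-0.38) and Fabp1 (-1.94) had the lowest p. Cubn lost its call without NFF 1 to 4, SFB 2 or SFB 3 (-1.87 to -2.09), Guca2a without any of 8 libraries (-0.99 without SFB 4 to -1.27 without NFF 1) and with quantile normalization (-0.75), and Nt5e without NFF 1, NFF 2 or NFF 4 (-1.84 to -2.02). Guca2a and Nt5e also lost their calls with the replicate number as a block. Villus tip genes, 11 in all, averaged 6.63, 4.73 and 5.47 on the log2 scale in Control 2, 4 and 5, 5.41 to 5.98 in NFF and 4.12 to 5.40 in SFB, with Nt5e the only one called. Of 13 hepatocyte markers 3 were in the table, with list means of 2.71 to 3.29 in Control, 2.46 to 2.96 in NFF and 3.29 to 4.08 in SFB. Cps1 of these was higher in SFB than in NFF by its mean and F2, which was too low to be tested, was not. Tat, tyrosine aminotransferase, rose between SFB and NFF and stood at 0.813 ± 0.635 RPKM in NFF and 6.31 ± 4.1 in SFB (SD, n = 4 each), a call lost without NFF 2 (log2 difference 1.82). Albumin and 9 further markers were not in the table, and the part of liver RNA in the Serpina1 levels was not tested.

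Of 20 further genes of clade A, the clade of antitrypsin, only Serpina1f was in the table, a neighbour on chromosome 12 best known from the epididymis. Its mean and SD were 0.548 ± 0.447 RPKM for Control (n = 3), 1.37 ± 0.505 for NFF and 0.32 ± 0.138 for SFB (n = 4 each). It fell by 0.83 ± 0.20 (SE) between SFB and NFF (limma adjusted p = 0.0327). That call was lost without SFB 2 (-0.84), SFB 3 (-0.77) or SFB 4 (-0.80), with a pseudocount of 0.1 (-1.80) and with the replicate number as a block. In Control 2, where most Serpina1 copies were high, it stood at 0.067 RPKM, its lowest value.

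Of 22 serpins of other clades 5 were tested and 0 were called in any of the 3 comparisons, and an unadjusted p under 0.05 was reached by 0 between NFF and Control, 0 between SFB and Control and 1 between SFB and NFF. Serpinb1a, an intracellular inhibitor of neutrophil proteases, was far more abundant than all Serpina1 copies together, with means and SDs of 400.0 ± 31.1 RPKM for Control (n = 3), 360.0 ± 25.8 for NFF and 409.0 ± 73.8 for SFB (n = 4 each). Its log2 difference between SFB and NFF was 0.17, with a 95% interval of -0.18 to 0.52, and it is named here after its values were seen. Serpinb6a (-0.30) and Serpinf2, antiplasmin (-0.93), had the lowest p of the list, neither called (limma adjusted p = 0.171 and 0.238).

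Of 5 tested inhibitors of serine proteases outside the serpin family limma called 0 in the 3 comparisons, with an unadjusted p under 0.05 for 2 between NFF and Control, 1 between SFB and Control and 1 between SFB and NFF. Spint1, an inhibitor of membrane proteases, stood at 133.0 ± 8.17 RPKM in NFF and 101.0 ± 10.6 in SFB (SD, n = 4 each; limma adjusted p = 0.0774), and its relative Spint2 differed by -0.28 (adjusted p = 0.264). Their median log2 difference between SFB and NFF was -0.28, against -2.62 for the 5 Serpina1 copies and 0.02 for all 10482 genes.

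Of the proteases listed, the table held only some of those of pancreatic juice and the epithelium. None of 10 proteases of neutrophils and mast cells, neutrophil elastase among them, was in the table. Of 9 tested proteases of pancreatic juice and the epithelium 1 rose between SFB and NFF, the membrane protease gene Tmprss4, from 35.5 ± 3.17 to 54.1 ± 8.04 RPKM (SD, n = 4 each; log2 difference 0.59 ± 0.13 SE, limma adjusted p = 0.0234). That call was lost without NFF 2 (0.53) or NFF 4 (0.58) and with the replicate number as a block.

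Of 22 transcription factors known for hepatocyte and enterocyte genes 1 rose and 0 fell between SFB and NFF, and 9 had an unadjusted p under 0.05. In the other comparisons limma called 0, with such a p for 3 between NFF and Control and 5 between SFB and Control. The gene that rose was Cebpd, a factor of the acute phase, with means and SDs of 8.27 ± 0.919 RPKM for Control (n = 3), 4.96 ± 1.39 for NFF and 12.8 ± 1.69 for SFB (n = 4 each; log2 difference 1.23 ± 0.16 SE, limma adjusted p = 0.00206). Hnf4a, a factor of liver and gut epithelium, stood at 72.7 ± 18.0, 72.8 ± 2.5 and 75.7 ± 18.6 RPKM in Control, NFF and SFB (SD, n = 3, 4 and 4) and was not called. The 95% interval of its log2 difference between SFB and NFF was -0.37 to 0.43, and the gene was picked for its role after the values were seen.

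Of 29 genes for export and quality control of secreted glycoproteins 1 fell and 0 rose between SFB and NFF. It was Retreg1, a receptor for autophagy of the endoplasmic reticulum, at 5.53 ± 1.31 RPKM in NFF and 2.17 ± 0.539 in SFB (SD, n = 4 each; log2 difference -1.03 ± 0.20 SE, limma adjusted p = 0.0135), and its call was lost without NFF 2 (-0.96). The median of the list was 0.10, and Lman1, the cargo receptor that carries antitrypsin out of the endoplasmic reticulum, differed by 0.16. Of 6 tested receptors and chaperones for the uptake of protease and serpin complexes 0 were called between SFB and NFF and 2 had an unadjusted p under 0.05. Lrpap1 (-0.49, limma adjusted p = 0.0629) and Lrp1 (-0.57, adjusted p = 0.0878) had the lowest p. Lman1 was chosen for its role after its values were seen.

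Of 10 tested genes for plasma proteins made by liver and intestine 0 were called in any of the 3 comparisons. An unadjusted p under 0.05 was reached by 0 between NFF and Control, 1 between SFB and Control and 1 between SFB and NFF. Between SFB and NFF 8 of 10 were below 0 and the median log2 difference was -0.63. Fabp1, the liver fatty acid binding protein gene included in that list, differed by -1.94 (limma adjusted p = 0.182) and Apoc3 by -1.50 (adjusted p = 0.198). Of 2 tested acute phase genes 1 rose between SFB and NFF, Lrg1, from 0.399 ± 0.271 to 18.4 ± 15.9 RPKM (SD, n = 4 each; limma adjusted p = 0.0228). Only 3 of 17 listed acute phase genes were in the table. Antitrypsin is counted among acute phase proteins. Its genes were lower in SFB and Lrg1 was higher there, and the part of an acute phase response in the Serpina1 levels was not tested. The Lrg1 call was lost without NFF 2 (3.28), NFF 4 (3.17) or SFB 3 (2.91).

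Of the genes behind the sort, Epcam was high and Ptprc and Cd44 were low, while Pecam1, which encodes CD31, was not in the table. Epcam was between 489.0 and 670.0 RPKM in every library and Ptprc, which encodes CD45, between 0.247 and 2.48. Cd44 stood at 1.7 ± 0.493 RPKM in SFB, against 0.537 ± 0.139 in NFF (SD, n = 4 each). Of 14 macrophage and neutrophil markers 4 were in the table, with summed levels of 30.9 to 54.6 RPKM in Control, 25.1 to 36.4 in NFF and 12.2 to 35.4 in SFB, and Csf1r, Adgre1, S100a8 and Mpo were not among them. Between SFB and NFF all 4 had an unadjusted p under 0.05, in both directions. Itgam rose by 1.41, a call lost without NFF 2 (1.44) or NFF 4 (1.21) and with the replicate number as a block. Cd14 (0.93), Lyz2 (-1.50) and Ptprc (-0.69) were not called. The part of such cells in the Serpina1 levels was not tested. Libraries deviated from their group means by 0.16 to 0.43 on the log2 scale, as a root mean square over genes, and SFB 4, SFB 2 and Control 2 by the most. Without these 3 libraries the mean log2 difference of the 5 copies was 1.57 between NFF and Control, -0.93 between SFB and Control and -2.50 between SFB and NFF, against 1.07, -1.53 and -2.59 with all libraries.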

How the data were processed

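The authors deposited RPKM values per gene, as the column names of the file state, from reads aligned with STAR to mm10, per the submitters' processing notes; versions, gene models, strand and the handling of reads with several matches were not stated in what was used here. RPKM keeps no read totals and low values showed no repeated steps, so depth is unknown and no counting interval is given. Summed RPKM per library ran from 237248 to 302661. Fits used limma 3.58.1 in R 4.3.3 on log2(RPKM + 1) for 10482 genes with at least 1 RPKM in at least 3 libraries, with 1 mean per group over 11 libraries, a mean trend and Benjamini-Hochberg adjustment at 0.05; the pipeline was tested on simulated data. Fold changes of low genes are understated on this scale. The p-values measure the spread between these libraries, which the labels do not say are separate animals.

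The members and lists were chosen with earlier results of these data known. Named genes were every member, every called gene of a list described (or up to 2 of lowest p), the 8 genes of closest profile, Epcam, Cd44 and Ptprc; exceptions are stated. The motif and sequence stretches were chosen after the sequences were seen. Libraries were grouped by title and treatment. Alternatives were other pseudocounts, filters, scalings, fits with only the groups compared, a replicate block, leaving out each library and, chosen after the data were seen, leaving out Control 2, SFB 2 and SFB 4. Protein sequences were not used here, and some genes of the lists are not reported by name.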

Additional observations from a re-analysis of the deposited data

Results flagged for a closer look

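Within groups of 4 libraries, 6 of 80 sets of values for the named genes had a highest library that stood apart from the other 3. The limit was that of Dixon's test on RPKM. Chance gives about 1 in 20 for unrelated genes, but many of these were chosen for a shared profile, so nothing is read from the count. Serpina1d stood at 7.58 RPKM in NFF 4, against 2.79 to 3.48 in the other NFF libraries. For 3 of the genes chosen for a profile close to Serpina1, NFF 4 was far above the rest of its group. It stood at 17.1 RPKM for Pcsk1n, 10.7 RPKM for Hspb1 and 13.6 RPKM for Fcna. The Serpina1 mean was itself highest in NFF 4, so these values follow from that choice and are no separate observation. SFB 4, the library with the lowest summed Serpina1 level, was far above the other SFB libraries for 2 genes of dividing cells, at 71.9 RPKM for Ccnb2 and 27.3 RPKM for Birc5.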

How the results depend on the processing

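The mean log2 difference of the 5 Serpina1 copies kept its sign in every alternative run. With a pseudocount of 0.1 it was -2.16 between SFB and Control and -3.46 between SFB and NFF, and from summed RPKM it was 1.09, -2.07 and -3.16 for NFF against Control, SFB against Control and SFB against NFF. Leaving out 1 library gave 0.72 to 1.57, -1.82 to -1.02 and -2.81 to -2.25. Numbers of genes called moved more. Of all genes 0, 21 and 769 were called in the 3 comparisons, and leaving out 1 library gave 0 to 8, 7 to 94 and 240 to 994. For SFB against Control the counts were 12, 39 and 10 without Control 2, 4 and 5, 11 without NFF 2, and 56, 7, 8 and 94 without SFB 1 to 4. For SFB against NFF they were 240, 423 and 303 without NFF 2, 3 and 4 and 503 without SFB 3, and for NFF against Control 8 without SFB 4. Quantile normalization gave 1187 for SFB against NFF, and fitting only the groups compared gave 1 for NFF against Control and 1 for SFB against Control. Without Control 2, SFB 2 and SFB 4 the counts were 22 and 95 against Control. The cause was not tested. With the replicate number as a block 0 genes were called for SFB against Control and 335 for SFB against NFF. Among the named genes only, 10 lost their call between SFB and NFF. They were Pcsk1n, Prnp, Nt5e, Chga, Serpina1f, Tmprss4, Itgam, Pnliprp2, Il17rb and Guca2a. Deviations of same-numbered libraries correlated at 0.20 and 0.67 for Control with SFB, which share 2 numbers, and at -0.30 to 0.03 in the other pairs. Nothing in the labels ties the numbers to animals or days, so whether they pair Control with SFB is not known. Of 2126 alternative values of named genes other than the Serpina1 copies 1994 kept their direction and side of the threshold, 98 lost and 20 gained a call and 14 reversed, all 14 in comparisons where the gene was not called. Of 314 values of single Serpina1 copies, judged by size and not by calls, 304 moved by less than the spread between libraries, 10 by more and 0 reversed. Between SFB and Control, Guca2a turned to 0.34 with quantile normalization and 0.02 with the block, and Cubn to 0.10 with the block. Leaving out 1 library gave -0.59 to 0.06 for Guca2a and -0.64 to 0.40 for Cubn there, and for Ccnb2 the difference went to 0 without Control 2, SFB 2 and SFB 4. Between NFF and Control, leaving out 1 library gave -0.02 to 0.97 for Prnp, -0.08 to 0.35 for Retreg1, -1.13 to 0.32 for Lrg1, -0.54 to 0.06 for Tat and -0.03 to 1.39 for Chgb. Depth is unknown, so levels under 1 RPKM, such as Serpina1c and Serpina1d in SFB, are the least certain.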
